A study of Mus musculus with 16 samples.

Results

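Cells that carried monocyte marker transcripts were taken from single-cell RNA sequencing of mouse bone marrow that had been depleted of lineage-positive cells. Cells were kept when 750 or more genes were detected and mitochondrial transcripts made up no more than 10% of UMIs (unique molecular identifiers, each standing for 1 captured transcript). A kept cell was a member if at least 3 of the 5 genes *Fn1*, *F13a1*, *Ccr2*, *Ly6c2* and *Ms4a6c* had a UMI, if the dendritic cell genes *Cd209a* and *Siglech* had none, and if the neutrophil granule genes *Camp*, *Ngp* and *Ltf* summed to fewer than 30 UMIs. This gave 19920 of 94917 cells. These 10 genes chose the members, so their levels are given as a description only and they were left out of every count of changed genes.

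The marrow came from 16 C57BL/6 mice of 6 to 12 weeks, 4 in each of 4 groups. *Tet2*-KO mice were *Tet2* fl/fl and carried *Vav-Cre*, which is active throughout the haematopoietic system, and WT mice were *Tet2* fl/fl without Cre, so the transgene and the loss of *Tet2* cannot be told apart. Mice of each genotype received vehicle or a daily dose of 500 ng IL1β for 5 weeks. Each of 8 libraries pooled 2 hashtagged mice of 1 group, so that mice 1 and 2 of a group shared a library, as did mice 3 and 4.

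Monocytes arise in the marrow from progenitors that also give rise to granulocytes. Transcription factors such as *Irf8* and *Klf4* and the receptor for colony-stimulating factor 1 mark the monocyte side, whereas *Gfi1*, *Cebpe* and the proteases of primary granules mark the granulocyte side. IL1β binds IL1R1 and, through MYD88 and IRAK kinases, releases NF-κB from its inhibitors, which then switches on inflammatory genes together with the genes of its own inhibitors. TET2 oxidises methylated cytosine in DNA, and its loss in blood cells is a common event in clonal haematopoiesis.

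For most members the markers went only in part with the name monocyte. Of the members, 6998 had 3 of the markers, 8729 had 4 and 4193 had all 5. Members with 3 markers held 5436 CPM (counts scaled to the summed UMIs of the class) of *Mpo*, the peroxidase of primary granules, against 4273 in those with 4 markers, 1401 in those with 5 and 237 in an erythroid gate of 24767 cells, which had UMIs of at least 3 of a set of erythroid genes, such as *Klf1* and *Car1*, and fewer than 3 monocyte markers. The order was the same for the granule proteases *Elane*, *Prtn3* and *Ctsg*. No UMI of any of these 4 genes was found in 848 members, 4.26%, which were shallow, with a median of 2319 UMIs against 6794 over all members. The 4 genes also had a UMI in 21.1 to 45.6% of erythroid cells. *Lyz2*, the lysozyme of mature myeloid cells, stood at 204 CPM with 3 markers, 603 with 4 and 4114 with 5, against 36.9 in erythroid cells. *Klf4* stood at 50.3, 117 and 324 CPM and *Csf1r*, the receptor for colony-stimulating factor 1, at 37.97, 65.3 and 104 CPM in the same order. *Irf8*, of the monocyte side, stood at 321, 494 and 488 CPM with 3, 4 and 5 markers, against 128 in cells with 2 and 7.28 in erythroid cells, and had a UMI in 68.0, 87.9 and 77.8% of the members. *Ly86*, another monocyte gene, had a UMI in 50.01% of members and 1.09% of erythroid cells. The LPS co-receptor *Cd14* reached no more than 13.4 CPM in any of these classes. Most of the gate was thus rich in primary granule transcripts and low in *Lyz2* while it held *Irf8*, and the members with all 5 markers, 21.0%, were rich in *Lyz2* and still held *Mpo*. The cells are therefore called gated cells here.

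**Figure D1:**
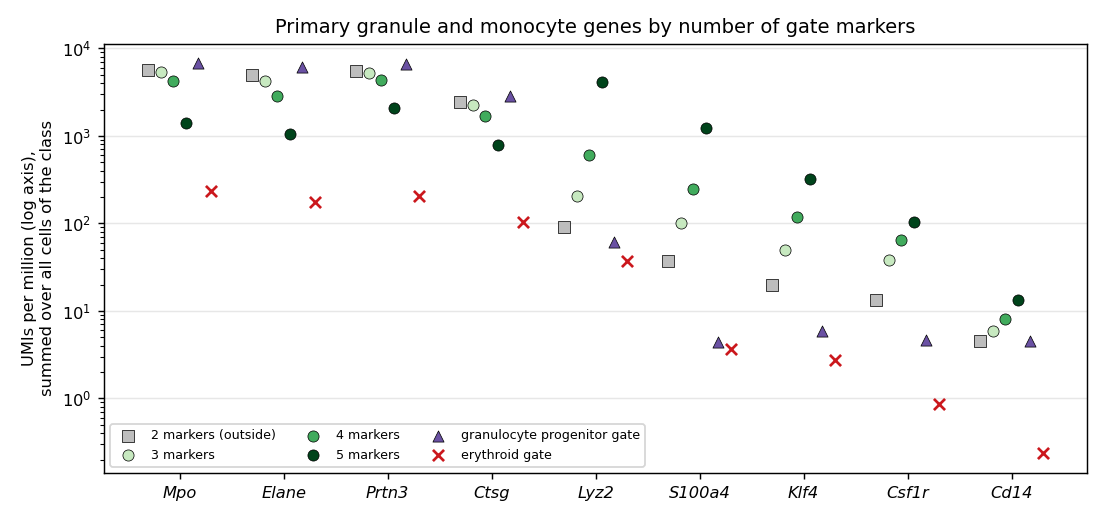
CPM (log axis) of 4 primary granule genes (left) and 5 monocyte genes (right) in cells outside the gate with 2 markers, in gated cells with 3, 4 or 5 markers, and in the granulocyte progenitor and erythroid gates, each summed over all cells of the class. *Mpo* drops from 5436 to 1401 and *Lyz2* climbs from 204 to 4114 between 3 and 5 markers.

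Just outside the gate, 9870 cells had 2 markers, with 5699 CPM of *Mpo* and 90.5 of *Lyz2*, against 5436 and 204 in members with 3. Among the markers *Ly6c2* had a UMI in 97.5% of members and 18.2% of erythroid cells, *Ms4a6c* in 92.2% and 3.91%, *F13a1* in 88.9% and 3.34%, *Ccr2* in 79.4% and 2.98% and *Fn1*, which encodes fibronectin, in 27.9% and 1.14%. Median UMIs per cell were 6794 in members and 9559 in erythroid cells. *Ly6c2* shares most of its sequence with *Ly6c1*, so the counts of either are uncertain. *Mpo* had a UMI in 45.6% of erythroid cells. The other limits of the gate took little: 919 cells were left out by *Cd209a* alone and 413 by *Siglech* alone, and only 28 members had 20 to 29 granule UMIs, against 17 cells with 30 to 39 that would otherwise have passed.

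Of the members, 14789 were assigned to 1 mouse by hashtag, 1364 carried both hashtags and 3767 neither, and the values per mouse rest on the first of these. Cells with both hashtags, doublets of 2 mice, thus entered no test by mouse or library, unless the hashtag ratio rule below assigned them to 1 mouse. They are in the levels by number of markers above, and doublets within a mouse were not looked for. Members per mouse ranged from 95 to 1514 and their summed UMIs from 609572 to 12259389. Mouse 2 of the WT vehicle group stood apart. It had the 95 members, and the 5 megakaryocyte markers summed to 7630 CPM in it, against 18.4 CPM in the lowest mouse of its group and at most 834 CPM in any other group. Where it changed a result, the value without it is given. In the pools of WT vehicle mice 1 and 2 and WT IL1β mice 3 and 4, 1 mouse had high *Xist* (1500.1 and 2451 CPM over all its cells) and the other had low *Xist* (74.97 and 278 CPM), levels well above the 0.113 to 0.492 CPM of the other low mice. The Y-linked *Ddx3y* was 4.06 and 4.54 CPM in the high-*Xist* mice of these 2 pools, against 0 to 0.253 CPM in the other high-*Xist* mice. Whether cells of the paired mice are mixed in these 2 pools was not tested, and the values of these 4 mice are less certain as values of single mice. *Xist* was also high in KO vehicle mice 1 and 2 and KO IL1β mice 3 and 4. By these sex-linked genes the sexes were not balanced between the genotypes, and in KO sex and library cannot be told apart. Median mitochondrial share was 3.17 to 3.87% in vehicle mice and 4.53 to 5.48% in IL1β mice. Its part in the results below was not tested. Barcodes shared between libraries were found in 0.532% of members.

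*Tet2* itself was read first. The 3′ counts do not cover the floxed part, so they check no deletion. In gated cells *Tet2* (chr3:133463679-133545139, minus strand, mm10) stood at 51.01, 37.7, 56.8 and 61.7 CPM in WT mice with vehicle and at 55.5, 58.0, 48.7 and 50.2 CPM in KO mice with vehicle. With IL1β it stood at 68.1, 81.5, 86.4 and 71.0 CPM in WT and at 89.8, 89.1, 72.6 and 71.9 CPM in KO. The genotypes overlapped under either treatment, while in each genotype every IL1β mouse was above every vehicle mouse. The rise with IL1β was 0.36 ± 0.11 on the log2 scale (SE, n = 4 against 4, edgeR adjusted p = 0.0204) in WT and 0.51 ± 0.10 (adjusted p = 0.00128) in KO. Mice share libraries in pairs, and with the 8 libraries as replicates no gene of the DNA methylation list below was called in WT.

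The share of gated cells was compared first. In WT mice with vehicle the gate held 27.0, 13.6, 27.6 and 27.6% of a mouse's cells, and with IL1β 22.99, 24.5, 23.9 and 25.4%. In KO mice the gate held 31.6, 37.2, 27.2 and 24.6% with vehicle and 34.2, 20.0, 22.6 and 24.6% with IL1β. Means were 24.0 ± 6.90% (SD, n = 4), 24.2 ± 1.01%, 30.1 ± 5.52% and 25.4 ± 6.16%, and in each comparison the groups overlapped. None of the 4 comparisons passed an exact permutation test (two-sided, 4 mice against 4, smallest p possible 0.0286). By that exact test the mean log2 ratio was 0.07 (p = 1) for IL1β in WT, -0.26 (p = 0.257) for IL1β in KO, 0.37 (p = 0.257) for KO against WT with vehicle and 0.04 (p = 0.886) for KO against WT with IL1β, and Benjamini-Hochberg adjusted p over the 4 was 0.514 or higher. Without mouse 2 of WT vehicle, the IL1β ratio in WT was -0.18 (exact p = 0.0571, the smallest that 3 mice against 4 can give) and the KO ratio with vehicle 0.12 (exact p = 0.514). Mice were assigned by HTODemux, and the shares above are of the cells given to 1 mouse. With cells of neither hashtag added, the 2 libraries held 16.9 and 19.9% in WT vehicle and 17.9 and 18.7% in WT IL1β. They held 28.1 and 20.3% in KO vehicle and 21.5 and 20.2% in KO IL1β. The ratios over libraries were -0.0016, -0.20, 0.38 and 0.19 in the same order, with no test. Apart from WT vehicle mouse 2 and KO IL1β mouse 2, each mouse had a higher share than its library. Cells with neither hashtag were thus poorer in members in most libraries, so the shares per mouse also depend on the loss of hashtags. Its part in the comparisons between groups was not tested. By the rule of 80% of at least 10 hashtag UMIs the ratios were 0.41, -0.51, 0.80 and -0.12 in the same order. None passed either (exact p = 0.2 or higher). That rule left few cells in some mice, 43 in WT vehicle mouse 1 against 4159 by HTODemux and 32 in KO vehicle mouse 1 against 4214. In several pools the rules also gave most cells to different mice. HTODemux gave 1259 cells to KO vehicle mouse 2, and the 80% rule 7142. WT IL1β mice 1 and 2 had 6432 and 2485 cells by HTODemux and 664 and 3816 by the 80% rule. KO IL1β mice 1 and 2 had 1426 and 4485 against 4273 and 235. Of 9347 members assigned by both rules, 28 went to different mice. Values of single mice in these pools are thus less certain as well.

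Members with all 5 markers made up 8.35, 6.91, 5.58 and 4.38% of cells in the KO vehicle mice and 2.73, 4.04, 2.94 and 4.12% in the KO IL1β mice. The groups did not overlap, with means of 6.31% and 3.46% and a mean log2 ratio of -0.85 (exact permutation p = 0.0286, the smallest possible, adjusted p = 0.114 over the 4 comparisons). In WT the 5-marker share was 5.60, 1.86, 9.16 and 7.76% with vehicle and 4.66, 6.20, 5.60 and 3.73% with IL1β, with a mean log2 ratio of -0.07 (exact p = 0.943). With each cell thinned to 2000 UMIs, the share of the whole gate was 19.9, 19.3, 17.6 and 16.0% in KO vehicle mice and 10.7 to 13.8% in KO IL1β mice, a mean log2 ratio of -0.61 (exact p = 0.0286, adjusted p = 0.114), after 55 to 669 shallower cells per mouse had been left out. The median UMIs of members ran from 5831 to 9690 in KO vehicle mice and from 8196 to 11448 in KO IL1β mice, and the unthinned shares overlapped. Neither result passed adjustment over the 4 comparisons, but a comparison alone at the smallest possible p cannot pass it. The adjusted p thus does not decide whether these shares fell. The 5-marker gate was added after the data had been seen. Of the gated cells, the share with all 5 markers was 23.9 ± 8.53%, 20.9 ± 4.65%, 20.8 ± 3.89% and 14.5 ± 5.21% in WT vehicle, WT IL1β, KO vehicle and KO IL1β, and for some genes and lists the change within the 5-marker members is given beside that over the whole gate. In sums over cells, fewer cells of a type and less RNA per cell cannot be told apart.

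**Figure D2:**
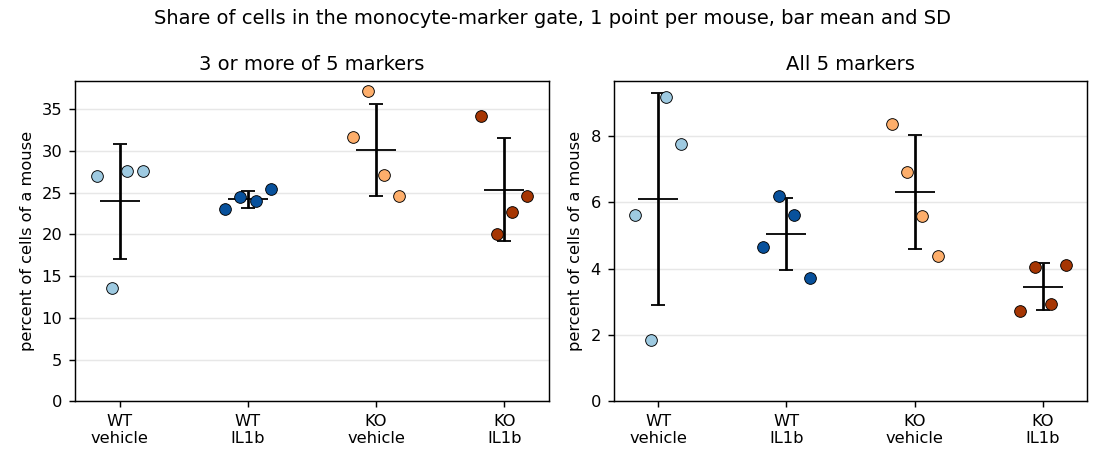
Percent of each mouse's cells in the gate (left, 3 or more markers) and with all 5 markers (right), 1 point per mouse, with the group mean and SD. The 13.6% of WT vehicle mouse 2 lies apart on the left, and on the right the KO IL1β mice (2.73 to 4.12%) lie below the KO vehicle mice (4.38 to 8.35%).

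Genes were then compared in UMIs summed per mouse over its gated cells, with edgeR on all 16 mice at an adjusted p under 0.05. The replicates are mice, told apart by their hashtags. Over 5 weeks of IL1β, the NF-κB inhibitors *Nfkbia* and *Tnfaip3*, the acute-phase gene *Saa3* and the granule gene *Lcn2* rose in gated cells, whereas the lysozyme gene *Lyz2*, *Lgals3*, *Csf1r* and the interferon-induced *Ifitm3* fell, in both genotypes. In WT, 1324 of 11310 genes rose and 1350 fell (23.6% called, 11.7% higher and 11.9% lower), and in KO 1888 rose and 1911 fell (33.6% called, 16.7% higher and 16.9% lower). At an unadjusted p under 0.05 the shares were 36.9% and 43.3%. Since mice share libraries in pairs, the 8 libraries were also taken as the replicates, 2 against 2, and then 61 of 12270 genes rose and 72 fell in WT (1.08% called, 0.497% higher and 0.587% lower) and 758 rose and 761 fell in KO (12.4% called, 6.18% higher and 6.2% lower). Of the genes just named, *Nfkbia*, *Tnfaip3*, *Lyz2*, *Lgals3* and *Ifitm3* were called in that fit in both genotypes, *Saa3* and *Csf1r* in KO alone and *Lcn2* in neither. Of 264 calls of named genes taken to that fit, 148 no longer passed there and none changed sign. That fit also took in the 3767 members with neither hashtag, so it differs in cells as well as in replicates. Its counts are given below for many of the lists, but not for all. Within 5-marker members, 4.77% of 8663 genes were called in WT, 1.63% higher and 3.14% lower, and 7.9% in KO, 3.02% higher and 4.87% lower. The 10 erythroid markers summed to 1261 to 1813 CPM in gated cells of WT vehicle mice and 586 to 1467 CPM in WT IL1β mice, and to 699 to 1738 and 464 to 851 CPM in KO. The 6 basophil and mast cell markers summed to 32.8 to 503 and 412 to 1551 CPM in WT, and to 186 to 379 and 262 to 707 CPM in KO. None of these markers was at 0, and their part in the changes was not tested. Without TMM scaling, which offsets a difference in composition between libraries, the split was 2555 higher and 932 lower in WT and 2626 and 1365 in KO, and the median of all genes moved from 0.04 to 0.17 in WT and from 0.02 to 0.12 in KO (log2), so directions here are relative to TMM. The comparisons within each treatment and within each genotype share groups of mice. No gene passed the test of the difference in IL1β effect between genotypes (edgeR and DESeq2, 0 each, 359 genes or 3.17% at an unadjusted p under 0.05), so no gene is described as specific to a genotype in its IL1β response.

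The NF-κB genes came first. Of 17 subunits and inhibitors, 9 rose and none fell in WT (median log2 fold change 0.39, against 0.04 over all genes) and 7 rose and none fell in KO (median 0.37 against 0.02). The share of all genes that rose was 11.7% in WT and 16.7% in KO. With libraries as replicates 2 rose in WT, *Nfkbia* and *Tnfaip3*, and 3 in KO. Of the members called, *Tnfaip3* and *Nfkbia* rose most in both genotypes, and both encode inhibitors of the pathway. *Nfkbia*, which encodes IκBα and holds NF-κB in the cytoplasm, stood at 59.4, 41.01, 38.1 and 27.1 CPM in WT vehicle mice and at 88.3, 345, 231 and 295 CPM in WT IL1β mice. In KO it stood at 43.6, 34.5, 40.7 and 34.6 CPM and at 225, 162, 222 and 121 CPM. All IL1β mice were above all vehicle mice, with WT IL1β mouse 1 the nearest to them. The fold change was 2.39 ± 0.34 (log2, SE) in WT (edgeR adjusted p = 0.000497) and 2.14 ± 0.32 in KO (adjusted p = 0.000169).

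*Tnfaip3*, which encodes the ubiquitin-editing enzyme A20 that ends signalling to NF-κB, stood at 8.04, 9.84, 4.71 and 3.31 CPM in WT vehicle mice and at 32.5, 83.3, 55.9 and 75.3 CPM with IL1β. In KO mice it stood at 8.55, 8.46, 3.80 and 4.49 CPM with vehicle and at 62.3, 38.3, 52.8 and 27.7 CPM with IL1β. Again the groups were apart in each genotype, by 3.35 ± 0.38 in WT (log2, edgeR adjusted p = 0.00039) and 2.75 ± 0.34 in KO (adjusted p = 9.01e-05). *Nfkbiz*, a nuclear IκB that works as a coactivator of secondary response genes, rose by 2.24 ± 0.46 in WT (14.4 ± 6.16 to 72.5 ± 28.6 CPM, mean and SD, n = 4) and by 1.44 ± 0.41 in KO (17.2 ± 12.5 to 50.3 ± 16.0 CPM). Its KO groups overlapped, since KO vehicle mouse 1 had 32.4 CPM and KO IL1β mouse 4 had 26.8. *Zc3h12a*, an RNase that degrades inflammatory transcripts, rose by 1.11 in WT and 1.26 in KO. *Relb* rose by 1.54 in WT and did not pass in KO (0.57, adjusted p = 0.206), and the difference between genotypes was not called (-0.97, adjusted p = 1).

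In erythroid cells of the same mice, where 8.28% of 10553 genes rose in WT and 5.34% in KO, *Nfkbia* rose as well, by 3.61 in WT and 3.29 in KO, and *Tnfaip3* by 3.92 and 3.22 (log2, edgeR). Granulocyte progenitors, gated by *Elane* and *Ms4a3* with no *Irf8* and fewer than 3 of the monocyte markers, gave 2.28 and 1.88 for *Nfkbia*. The IL1β effect in gated cells minus that in granulocyte progenitors, averaged over genotypes with mouse as a block, was 0.20 for *Nfkbia* (adjusted p = 0.22) and 0.33 for *Tnfaip3* (adjusted p = 0.552). Of the 17 NF-κB genes, none was called higher and 1 lower in that difference, where 1432 of 11365 genes (12.6%) were called, 8.75% higher and 3.85% lower, with 26.3% at an unadjusted p under 0.05. Within 5-marker members both inhibitors rose too, *Nfkbia* by 1.88 and 1.81 and *Tnfaip3* by 2.94 and 2.31 in WT and KO.

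Promoters of the NF-κB and mediator genes were searched on both strands for the letters GGG, 2 bases of any kind, TT, 1 base of any kind and CC, a pattern of NF-κB sites, in the 250 bases before the start of transcription (RefSeq, GRCm38.p6). The pattern stood in 6 of the 13 NF-κB list promoters found in the reference and in 5 of the 14 mediator promoters, against 4.55% of 8638 promoters of tested genes and 4.0% of all 27025. The 3 promoters below were picked because they hold a match and their genes were called higher with IL1β in both genotypes, with matches in capitals and the transcription start just after the last base. *Zc3h12a*, *Saa3*, *Lcn2*, *Ier3* and *Tnf* were called higher in both genotypes as well and had no match in this window. The matches begin 29, 12 and 35 bases before the start, and all are printed here as the reverse complement, GG, any base, AA, 2 of any kind and CCC.
*Nfkbia* (chr12:55492648-55492897, minus strand): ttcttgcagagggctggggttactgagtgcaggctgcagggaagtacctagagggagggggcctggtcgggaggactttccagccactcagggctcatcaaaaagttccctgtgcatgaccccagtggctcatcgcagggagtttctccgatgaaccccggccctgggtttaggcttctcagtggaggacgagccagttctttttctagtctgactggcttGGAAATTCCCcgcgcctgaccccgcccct
*Tnfaip3* (chr10:19015411-19015660, minus strand): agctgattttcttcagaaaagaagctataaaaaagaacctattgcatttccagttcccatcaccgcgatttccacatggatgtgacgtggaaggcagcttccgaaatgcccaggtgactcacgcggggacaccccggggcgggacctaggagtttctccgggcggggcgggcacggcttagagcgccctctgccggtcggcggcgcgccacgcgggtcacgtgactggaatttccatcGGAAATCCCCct
*Ccl9* (chr11:83578637-83578886, minus strand): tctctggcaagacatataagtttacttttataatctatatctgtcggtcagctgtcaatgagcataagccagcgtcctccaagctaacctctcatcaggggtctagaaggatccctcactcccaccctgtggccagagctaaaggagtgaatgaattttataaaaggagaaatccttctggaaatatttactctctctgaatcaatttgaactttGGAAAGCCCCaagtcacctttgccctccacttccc

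Inflammatory mediators followed. Of 14 tested, 6 rose in WT (median log2 fold change 1.25) and 3 in KO (median 1.13), and none fell. Among all genes 11.7% rose in WT and 16.7% in KO, and the number in KO lies near that share. Taking libraries as replicates, 1 rose in WT, *Ccl9*, and 2 in KO, *Ccl9* and *Saa3*. *Saa3* (chr7:46711998-46715700, minus strand), an acute-phase serum amyloid, stood at 0.685, 0, 0.277 and 1.35 CPM in WT vehicle mice, 17 UMIs in all, and at 45.9, 67.8, 33.0 and 5.43 CPM with IL1β, 1135 UMIs. In KO it stood at 0.827, 0.619, 1.85 and 0.421 CPM with vehicle (33 UMIs) and at 13.4, 5.54, 70.7 and 74.1 CPM with IL1β (1592 UMIs). Every IL1β mouse was above every vehicle mouse, but the IL1β mice spread widely in each genotype. The fitted rise was 5.52 ± 1.08 in WT (log2, edgeR adjusted p = 0.00208) and 5.28 ± 0.90 in KO (adjusted p = 0.000439). In the erythroid gate *Saa3* reached a mean of 1.04 CPM in WT and 0.466 CPM in KO with IL1β, and in 5-marker members it rose by 6.91 and 6.70.

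*Ccl9*, a CC chemokine, stood at 115, 93.5, 120.2 and 121 CPM in WT vehicle mice and at 207, 273, 261 and 143 CPM with IL1β, and at 89.8 to 111 CPM with vehicle and 261, 225, 238 and 217 CPM with IL1β in KO. The groups did not overlap, and the rise was 0.82 ± 0.15 in WT (edgeR adjusted p = 0.00165) and 1.14 ± 0.15 in KO (adjusted p = 0.000104). It was larger in gated cells than in granulocyte progenitors by 0.41 (adjusted p = 0.000438). *Tnf*, the inflammatory cytokine TNF, rose by 1.69 in WT (6.38 ± 3.04 to 26.6 ± 12.6 CPM) and by 1.12 in KO (7.63 ± 3.62 to 17.5 ± 9.75 CPM), although in 5-marker KO members its change was -0.14 (adjusted p = 0.888). The chemokines *Cxcl2* and *Cxcl10* rose in WT by 2.43 and 2.59, and in KO their changes of 1.36 and 1.29 did not pass (adjusted p = 0.133 and 0.0833), with no call for a difference between genotypes.

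Of 17 genes for IL1 ligands, receptors and adaptors, 5 rose and 1 fell in WT and 7 rose and 1 fell in KO, whereas with libraries as replicates none was called in WT, and 1 rose and 1 fell in KO. For these and the JAK-STAT genes below, the shares over all genes were 11.7% higher and 11.9% lower in WT and 16.7% and 16.9% in KO. *Irak3*, a kinase-dead IRAK that dampens the receptor, rose by 0.86 (13.1 to 29.4 CPM) and 0.69 (17.5 to 29.9 CPM), and *Il1rap*, the co-receptor of IL1R1, by 0.79 and 0.72 in WT and KO. The inflammasome adaptor *Pycard* was the one that fell, by 0.73 in WT and by 0.64 in KO. *Il1r1* itself stayed at 0.687 to 5.29 CPM across the mice. Among 15 JAK-STAT genes 4 rose in each genotype and none fell, with *Stat3*, a transducer of interleukin 6 type signals, at 37.5, 29.5, 43.1 and 33.4 CPM in WT vehicle and 60.9, 63.0, 59.2 and 48.9 CPM in WT IL1β mice. Its KO values were 47.0, 45.8, 35.6 and 33.4 CPM and 66.6, 62.4, 56.5 and 55.8 CPM, and neither genotype had an overlap. It rose by 0.52 and 0.48 (edgeR adjusted p = 0.00669 and 0.00447). Over libraries none of these JAK-STAT genes was called in WT and 2 rose in KO, *Stat3* among them.

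Granule and progenitor genes followed. Of 16 neutrophil granule and maturation genes 4 rose and none fell in WT (median 0.85) and 5 rose and none fell in KO (median 0.39). Beside these stand 11.7% of all genes that rose in WT and 16.7% in KO. None of them was called in WT with libraries as replicates, and 2 rose in KO. *Lcn2*, the siderophore-binding lipocalin of secondary granules, stood at 27.0, 24.6, 18.4 and 18.03 CPM in WT vehicle mice and at 82.4, 93.4, 55.3 and 23.9 CPM with IL1β, where mouse 4 fell among the vehicle values. In KO it stood at 42.5, 31.4, 18.1 and 11.8 CPM and at 56.1, 38.5, 106 and 102 CPM, again with an overlap. The rise was 1.504 ± 0.44 and 1.47 ± 0.40 (edgeR adjusted p = 0.0192 and 0.00863). *Wfdc21*, a secreted whey acidic protein, stood at 17.97, 19.7, 10.3 and 16.6 CPM in WT vehicle mice and at 110.0, 96.4, 69.2 and 56.5 CPM with IL1β, with no overlap. In KO its vehicle mice split by pool, at 101 and 82.1 CPM in mice 1 and 2 and 13.2 and 11.6 CPM in mice 3 and 4, against 218, 72.0, 291 and 254 CPM with IL1β, so that mouse 2 overlapped the first pool. The pools also differed in *Xist*, which was high in KO vehicle mice 1 and 2 and KO IL1β mice 3 and 4, and with *Xist* as a covariate the change was 2.40 in WT and 2.13 in KO. *Wfdc21* rose by 2.35 and 1.95 (adjusted p = 0.0123 and 0.00887), and by 1.61 more than in granulocyte progenitors (adjusted p = 2.88e-05). *Pglyrp1*, a bactericidal peptidoglycan-binding protein, rose by 1.16 and 1.38.

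The 10 neutrophil markers, which include the 3 granule genes that the gate limits, summed to 385 to 1952 CPM in WT vehicle and 977 to 1745 CPM in WT IL1β mice and to 318 to 2025 and 1046 to 2331 CPM in KO, none at 0, and their part in these changes was not tested.

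Among 15 primary granule and progenitor genes 6 rose and 1 fell in WT (median 0.50) and 7 rose and 1 fell in KO (median 0.38). Here too 11.7% of all genes rose in WT and 16.7% in KO. Within 5-marker members 7 rose and none fell in WT (median 0.93), and 1 rose and 1 fell in KO (median 0.09), against 1.63 and 3.02% of all genes that rose there. With libraries as replicates none of the list was called in WT, *Gfi1*, *Myb*, *Kit* and *Mpo* included, and 6 rose and 1 fell in KO, without *Mpo*. *Gfi1*, the repressor that steers progenitors toward granulocytes, stood at 9.24, 13.1, 14.7 and 15.6 CPM in WT vehicle mice and at 34.7, 40.8, 30.3 and 42.4 CPM with IL1β. In KO it stood at 20.8, 23.1, 11.7 and 10.8 CPM and at 70.3, 39.9, 55.5 and 44.7 CPM. It was apart in both genotypes and rose by 1.33 ± 0.25 and 1.58 ± 0.22 (edgeR adjusted p = 0.00161 and 0.000124). *Myb*, a transcription factor of proliferating progenitors, stood at 179.9, 187, 188 and 198 CPM in WT vehicle mice and 366, 302, 353 and 379 CPM with IL1β, and at 246, 255, 163 and 169 CPM and 537, 413, 383 and 370.1 CPM in KO. It rose by 0.76 and 0.94, and the stem cell factor receptor *Kit* by 0.66 and 0.89. In 5-marker members of KO mice these 3 genes were not called, with changes of 0.41, 0.28 and 0.19, while in WT *Gfi1* and *Myb* were, with 2.44 and 1.01.

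*Mpo* stood at 2554, 2512, 3224 and 3190.3 CPM in WT vehicle mice and 4239, 4029, 3401 and 4258 CPM with IL1β, and at 4319, 4942, 3706 and 3457 CPM and 6474, 4982, 5616 and 5730.2 CPM in KO. Every IL1β mouse was above the vehicle mice of its genotype, and the rise was 0.35 ± 0.12 and 0.38 ± 0.12 (edgeR adjusted p = 0.0422 and 0.0197). In granulocyte progenitors *Mpo* instead fell, by 0.24 in WT (adjusted p = 0.044), and was at -0.10 in KO (adjusted p = 0.378), a difference of 0.55 between the gates (adjusted p = 4.01e-05). In that difference 11 of the 15 primary granule and progenitor genes were called higher and none lower, a list that holds *Elane* and *Ms4a3*, which chose the granulocyte progenitors. *Gfi1*, *Cebpe*, a factor of late granulocyte maturation, and *Pglyrp1* each had a larger IL1β effect in gated cells, by 1.15, 1.23 and 1.21 (adjusted p = 1.4e-06, 4.78e-05 and 1.4e-06). In gated cells *Cebpe* did not pass in WT (0.73, edgeR adjusted p = 0.0835) and rose in KO (0.98, adjusted p = 0.00937). In granulocyte progenitors it fell in WT (-0.49, adjusted p = 0.0467) and was at -0.32 in KO (adjusted p = 0.168).

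**Figure D3:**
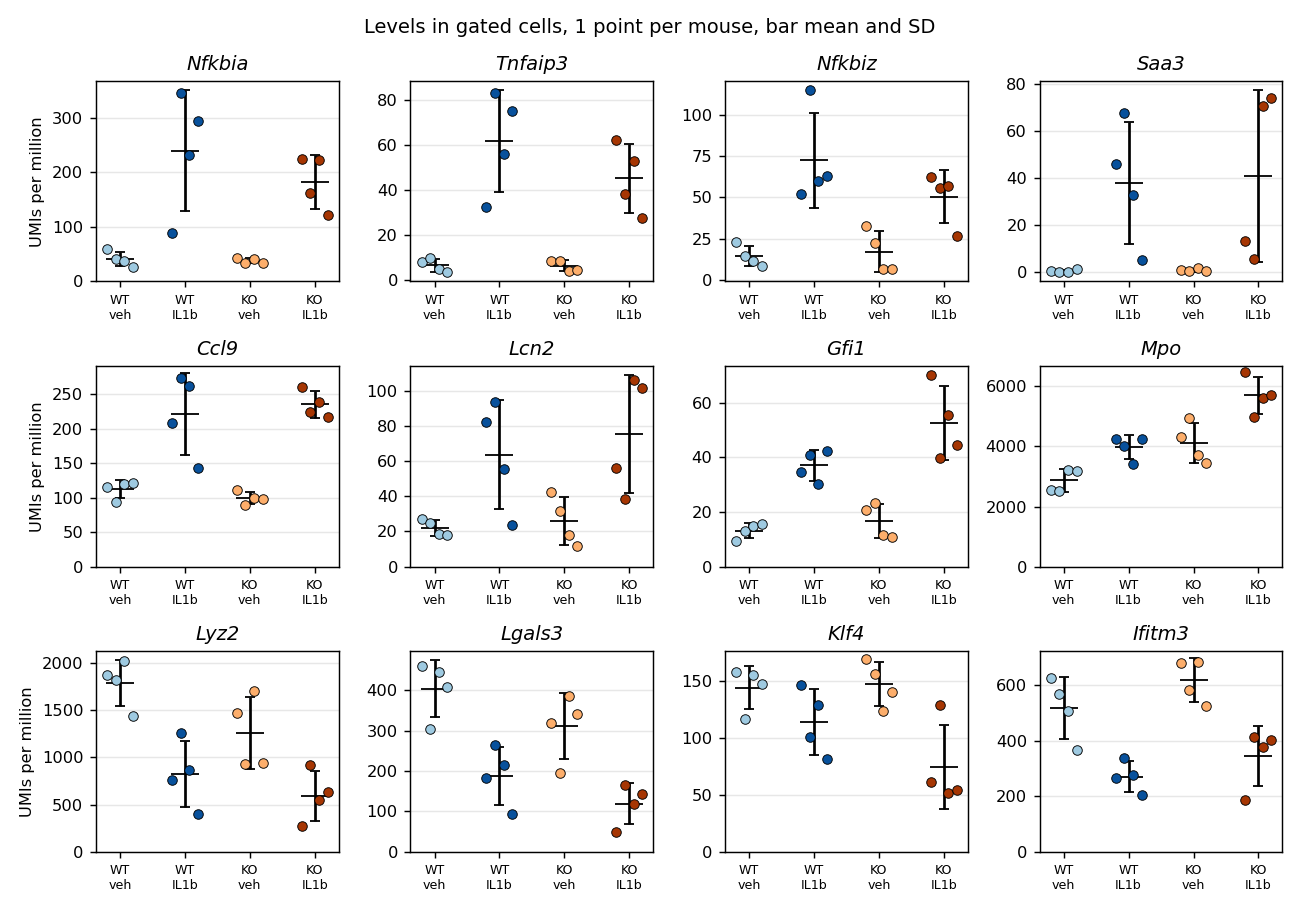
CPM in the gated cells of each mouse for genes of the response, 1 point per mouse with the group mean and SD (veh, vehicle). The NF-κB inhibitors *Nfkbia* and *Tnfaip3*, the acute-phase gene *Saa3* and the repressor *Gfi1* lie higher in all 8 IL1β mice than in the vehicle mice of the same genotype, whereas *Lyz2*, *Lgals3* and *Ifitm3* lie lower.

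Of 20 classical monocyte genes outside the gate's own, 5 fell and 1 rose in WT (median -0.30) and 7 fell and 2 rose in KO (median -0.33). The shares of all genes that fell were 11.9% in WT and 16.9% in KO. With libraries as replicates 2 fell in WT, and 8 fell and 2 rose in KO. Within 5-marker members 1 fell and 1 rose in WT (median -0.19), and none fell and 4 rose in KO (median 0.09), in a fit with fewer cells, where 3.14 and 4.87% of all genes fell and 1.63 and 3.02% rose. *Lyz2* (chr10:117277331-117282321, minus strand) stood at 1875, 1824, 2019 and 1439 CPM in WT vehicle mice and at 759, 1257, 868 and 405 CPM with IL1β. In KO it stood at 1466, 934, 1699.5 and 937 CPM with vehicle and at 275, 921, 546 and 634 CPM with IL1β. No IL1β mouse reached the vehicle mice of its genotype, with KO IL1β mouse 2 the nearest. The members without a UMI of *Mpo*, *Elane*, *Prtn3* or *Ctsg*, which held 7353 CPM of *Lyz2*, made up 5.11 to 10.6% of members in WT vehicle and 2.03 to 6.50% in WT IL1β mice, and 0.214 to 4.23% and 0.610 to 2.90% in KO. This share goes with depth as well, and the median UMIs of members were 4556 to 7074 in WT vehicle and 5485 to 7447 in WT IL1β mice, with those of KO given above. The part of either in the change was not tested. The change was -1.24 ± 0.32 in WT (log2, edgeR adjusted p = 0.011) and -1.19 ± 0.32 in KO (adjusted p = 0.00907). Within 5-marker members *Lyz2* fell by 1.15 in WT (adjusted p = 0.0112) and was at -0.49 in KO (adjusted p = 0.236). Its sequence is close to that of *Lyz1*, so reads may be split between the copies.

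*Lgals3*, the galectin of macrophages, stood at 461, 303, 446 and 407 CPM in WT vehicle mice and 181, 264, 215 and 92.7 CPM with IL1β, and at 318, 195, 386 and 340.5 CPM and 49.8, 165, 119 and 144 CPM in KO. It fell without an overlap, by 1.23 ± 0.32 in WT and by 1.48 ± 0.32 in KO (edgeR adjusted p = 0.0105 and 0.00212). In 5-marker members the change was -0.94 in WT (adjusted p = 0.0127) and -0.61 in KO (adjusted p = 0.0763). The IL1β effect on *Lgals3* minus that in granulocyte progenitors was -0.97 (adjusted p = 0.0116). Minus that in monocyte-primed progenitors it was -2.22 (adjusted p = 0.0131). That gate held 1164 cells with UMIs of *Mpo*, *Irf8* and *Ly86* and fewer than 3 monocyte markers. In it 14 mice had at least 10 cells, among the KO IL1β mice only mice 2 and 4. The KO IL1β libraries held only 62 and 21 of its cells. Against that gate 47 of 8830 genes (0.532%) differed in the IL1β effect, 0.136% higher and 0.396% lower, with 9.16% at an unadjusted p under 0.05.

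*Csf1r* fell from 72.8 ± 11.002 to 58.5 ± 8.98 CPM in WT, by 0.50 ± 0.13 on the log2 scale, and from 68.1 ± 9.53 to 48.7 ± 7.51 CPM in KO, by 0.59 ± 0.13 (edgeR adjusted p = 0.0115 and 0.00203). WT mice overlapped, and KO IL1β mouse 2 at 59.9 CPM stood above KO vehicle mouse 2 at 54.5. *Klf4*, which drives monocyte differentiation, stood at 158, 116, 155 and 148 CPM in WT vehicle mice and 147, 101, 129.6 and 81.5 CPM with IL1β, a change of -0.47 that did not pass (adjusted p = 0.143). In KO it stood at 169.9, 156, 124 and 140.3 CPM and at 61.3, 129, 51.9 and 54.8 CPM, a fall by 1.10 ± 0.23 (adjusted p = 0.00161), with mouse 2 alone among the vehicle values. The difference between the genotypes was -0.63 and was not called (adjusted p = 1, unadjusted p = 0.0674). *Irf8* fell from 538 ± 154 to 415 ± 51.5 CPM in WT, by 0.52, and from 475 ± 97.9 to 295 ± 66.9 CPM in KO, by 0.80 (adjusted p = 0.0498 and 0.00342). *Spi1*, which encodes PU.1, fell by 0.43 and 0.46. *Ly86*, the partner of RP105, fell by 0.85 and 0.97. In 5-marker KO members *Ly86* was at 0.06 (adjusted p = 0.88), and *Csf1r*, *Klf4* and *Irf8* were not called there in either genotype. *Gda*, guanine deaminase, rose in both genotypes, by 0.96 and 0.94.

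Of 11 macrophage genes 1 rose and 2 fell in WT and 2 rose and 2 fell in KO. These counts lie near the shares over all genes, 11.7% higher and 11.9% lower in WT and 16.7% and 16.9% in KO. *Cd68*, the lysosomal macrosialin, fell by 0.93 and 0.90, and *Trem2* by 1.01 and 0.91. Within 5-marker members *Cd68* fell in WT (-0.94, edgeR adjusted p = 0.00444) and did not pass in KO (-0.24, adjusted p = 0.444), and *Trem2* passed in neither, at -0.58 in WT (adjusted p = 0.174) and 0.19 in KO (adjusted p = 0.664). Of 12 Fc and complement genes 2 fell in WT, and 3 rose and 3 fell in KO, among them *Cfp*, which encodes properdin (-0.85 and -1.001, called in both), and *Fcer1g*, the shared Fc receptor gamma chain (-0.95 and -0.80). Within 5-marker members 2 of this list fell in WT and none was called in KO. There *Cfp* was at -0.67 in WT (adjusted p = 0.00332) and -0.29 in KO (adjusted p = 0.145). Of 20 genes of the NADPH oxidase and iron handling 8 fell and 1 rose in WT and 7 fell and 4 rose in KO. With libraries as replicates 3 fell and none rose in WT, and 3 fell and 3 rose in KO. Within 5-marker members 6 fell and none rose in WT, and 3 fell and 1 rose in KO. Those that fell over the whole gate include the oxidase subunits *Cyba* (-0.89 and -0.55) and *Ncf4* (-0.65 and -0.67) and the ferritin light chain *Ftl1* (-0.80 and -0.65). In erythroid cells *Ftl1* fell too (-0.82 and -0.68). None of 10 Ly6c-low monocyte genes was called by edgeR in either genotype. Of 9 MHC class II genes 2 fell in each genotype and none rose, and with libraries as replicates these 2 were called in KO and not in WT. These were *H2-DMa* (-0.56 and -0.75) and *H2-DMb1* (-0.88 and -0.95), which encode the chains that load peptide onto class II molecules.

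Of 24 interferon response genes 5 fell and 1 rose in each genotype (median -0.56 in WT and -0.38 in KO). Over all genes 11.9% fell and 11.7% rose in WT, and 16.9% and 16.7% in KO. The number that fell in KO lies near that share. With libraries as replicates 3 fell in WT and 8 in KO. *Ifitm3*, a membrane protein that blocks viral entry, stood at 624, 568, 508 and 367 CPM in WT vehicle mice and at 265, 337, 277 and 203 CPM with IL1β, and at 679, 583, 684 and 523 CPM and 186, 414, 378 and 401 CPM in KO. It fell with no overlap, by 1.05 ± 0.22 and by 0.94 ± 0.22 (edgeR adjusted p = 0.00319 and 0.00352). *Ifi27l2a* stood at 172, 75.5, 113 and 68.1 CPM in WT vehicle mice and 18.9, 39.8, 30.5 and 16.3 CPM with IL1β, and at 167, 132, 150.2 and 90.2 CPM and 10.3, 64.8, 29.4 and 64.0 CPM in KO. It fell by 2.20 ± 0.43 and by 1.75 ± 0.40 (adjusted p = 0.00215 and 0.00285). *Ifi44* fell by 1.55 and 1.61. In 5-marker members *Ifitm3* and *Ifi27l2a* fell in WT, by 1.20 and 2.12, and were at -0.55 and -0.997 in KO (adjusted p = 0.163 and 0.105).

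**Figure D4:**
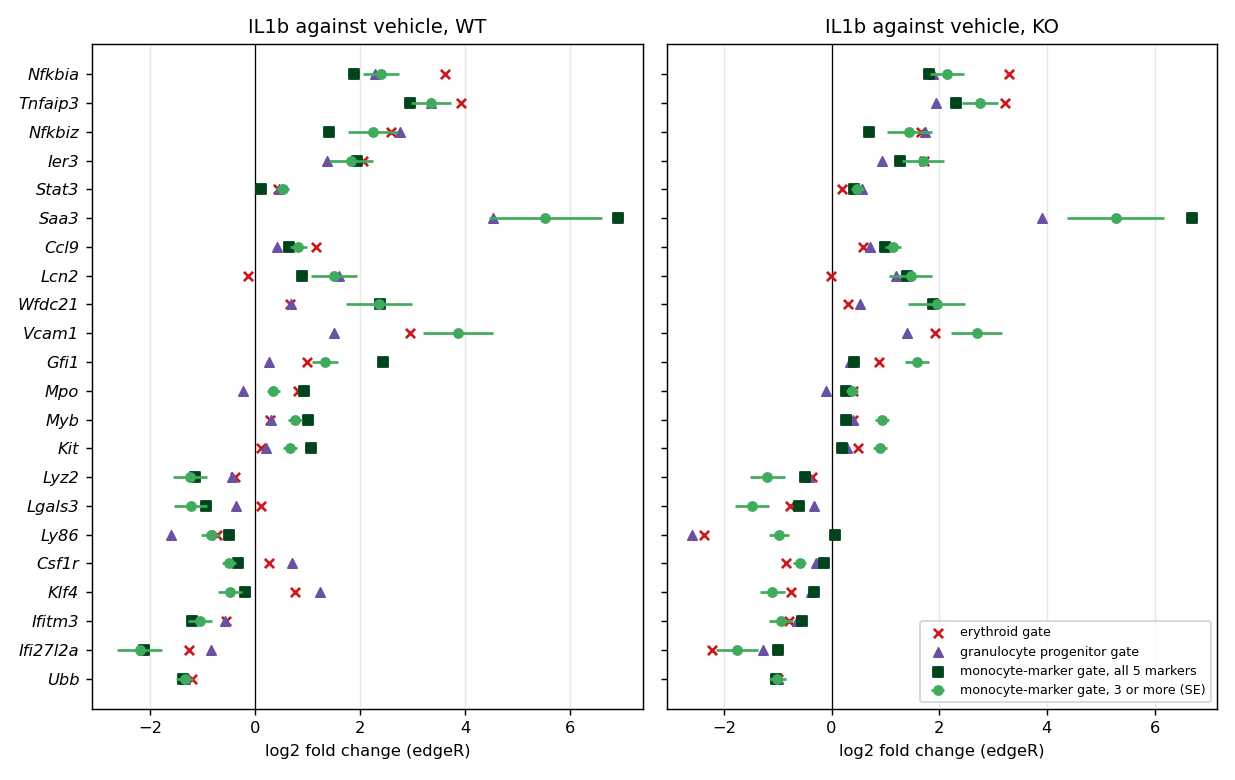
Log2 fold change with IL1β against vehicle for selected genes in WT (left) and KO (right), in gated cells (green circles with SE), in their 5-marker members (squares), in granulocyte progenitors (triangles) and in erythroid cells (crosses, absent where the gene was too low to test). *Nfkbia*, *Tnfaip3* and *Ubb* move in the same direction in all these gates, and *Gfi1* and *Wfdc21* lie above their values in granulocyte progenitors.

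Of 81 cytosolic ribosomal protein genes 54 fell and 2 rose in WT (median -0.34) and 37 fell and 3 rose in KO (median -0.20), and in erythroid cells, where 10.6 and 8.42% of all genes fell, 61 and 50 of the list fell (medians -0.45 and -0.32). Of 84 respiratory chain genes 29 fell and none rose in WT and 35 fell and 1 rose in KO, against 50 and 47 that fell in erythroid cells. Without TMM 49 ribosomal protein genes fell and 11 rose in WT, and 31 fell and 14 rose in KO, and of the respiratory chain genes 21 fell and 8 rose in WT and 27 fell and 3 rose in KO. With the 8 libraries as replicates none of either list was called by edgeR in WT, and 2 ribosomal protein and 3 respiratory chain genes fell in KO. *Ubb*, a polyubiquitin gene whose repeated sequence makes its counts uncertain, stood at 617, 507, 451 and 432 CPM in WT vehicle mice and 263, 221, 189 and 189 CPM with IL1β, and at 427, 454, 589 and 565 CPM and 241, 245, 301 and 293 CPM in KO. It fell by 1.34 ± 0.16 and 1.01 ± 0.16 (edgeR adjusted p = 0.00039 and 0.000244), and by 1.20 and 0.99 in erythroid cells. Genes that rose in WT had a median exon length of 5694 bases and those that fell 2580.5, against 4401 over all genes tested, with 5680 and 2913 in KO. Of 20 S phase genes 7 fell in each genotype and 1 rose in WT, and those that fell include the thymidylate synthase gene *Tyms* (-0.69 and -0.81), which also fell in erythroid cells. Of 11 heat shock and chaperone genes 2 fell in WT and 6 in KO, where *Hsph1* fell by 1.14 and *Hspa8* by 0.84. For the lists of this paragraph, 11.9% of all genes fell in WT gated cells and 16.9% in KO. The parts of RNA quality, mitochondrial share and depth in these changes were not tested.

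**Figure D5:**
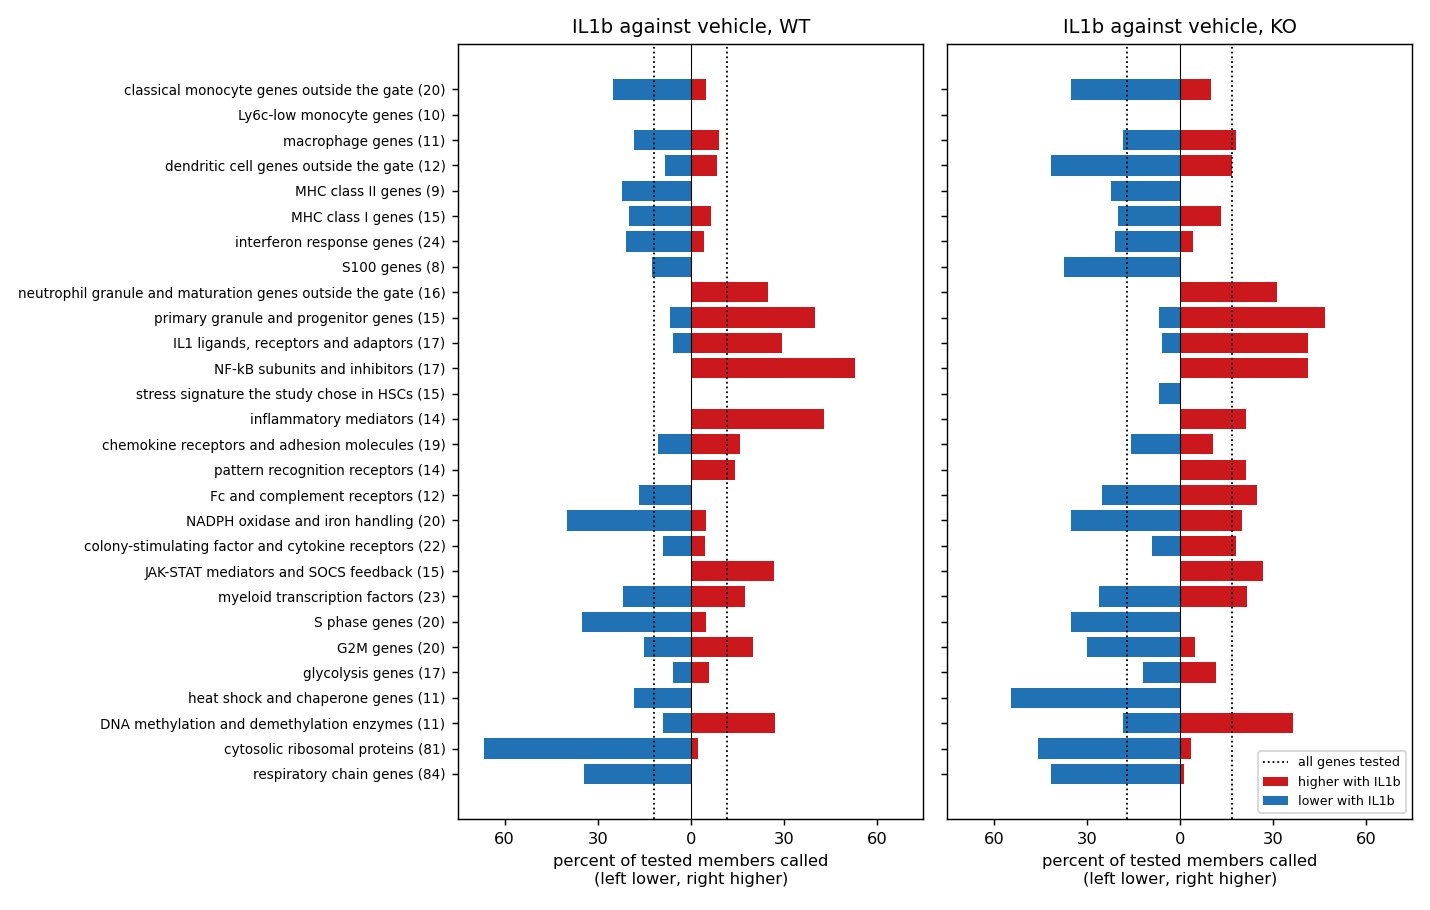
Percent of the tested members of each gene list called higher (red, right) or lower (blue, left) with IL1β in WT and KO gated cells. The dotted lines give the share over all genes tested, 11.7% higher and 11.9% lower in WT and 16.7% and 16.9% in KO, and the number tested follows each name. The NF-κB list lies to the right with none lower, and the ribosomal protein list lies to the left.

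Beside the list counts for IL1β from here on stand the shares over all genes, 11.7% higher and 11.9% lower in WT and 16.7% and 16.9% in KO. Of 12 dendritic cell genes 1 rose and 1 fell in WT and 2 rose and 5 fell in KO, where *Batf3*, a factor of dendritic cells, changed by -1.73 (edgeR adjusted p = 0.0013). *Batf3* was low, at a mean of 2.24 CPM (75 UMIs) in KO vehicle and 0.69 CPM (25 UMIs) in KO IL1β mice. Among 14 pattern recognition receptors 2 rose in WT and 3 in KO, with *Clec4e*, the receptor Mincle, at 1.30 and 1.16. Of 15 MHC class I genes 1 rose and 3 fell in WT and 2 rose and 3 fell in KO, and in both genotypes the peptide transporter *Tap2* rose (0.56 and 0.64) while the immunoproteasome subunit *Psmb8* fell (-0.74 and -0.84).

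The 19 chemokine receptors and adhesion molecules gave 3 higher and 2 lower in WT and 2 higher and 3 lower in KO, and without TMM 5 higher and none lower in WT. The 22 receptors for colony-stimulating factors and cytokines gave 1 higher and 2 lower in WT and 4 higher and 2 lower in KO. Myeloid transcription factors, 23 in all, gave 4 higher and 5 lower in WT, but 7 higher and 1 lower without TMM, and 5 higher and 6 lower in KO. Of 8 S100 genes 1 fell in WT and 3 in KO, and with libraries as replicates 3 in each. Glycolysis genes gave 1 of 17 in each direction in WT and 2 in KO, and of 20 G2M genes 4 rose and 3 fell in WT and 1 rose and 6 fell in KO. The G2M rises in WT depended on the setting, with 1 higher by DESeq2, none with 4 or more markers and 7 without TMM. In WT no gene of the dendritic cell, pattern recognition, MHC class I, chemokine receptor, transcription factor, S phase, G2M, glycolysis or heat shock lists was called by edgeR with libraries as replicates.

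The DNA methylation enzymes were counted because of the genotype. Of 11, 3 rose and 1 fell in WT and 4 rose and 2 fell in KO, but without TMM 6 rose and none fell in WT and 6 rose and 1 fell in KO, and with libraries as replicates none was called in WT and 1 rose and 1 fell in KO. *Tet1*, *Dnmt3a* and *Uhrf1* were called in that fit in neither genotype. *Tet1* rose by 0.80 (7.80 to 13.2 CPM) and 0.76 (7.31 to 13.3 CPM), and *Dnmt3a*, a de novo methyltransferase, by 0.40 and 0.37. *Uhrf1*, which guides maintenance methylation, fell by 0.24 and 0.28. *Tet1*, *Dnmt3a* and *Uhrf1* each differed from granulocyte progenitors, by 0.62, 0.40 and -0.24 (edgeR adjusted p = 0.00157, 0.0133 and 0.00389), and *Tet2* did not pass that test (-0.09, adjusted p = 0.492).

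The study chose a stress signature as higher in *Tet2*-KO than in WT haematopoietic stem cells, 15 immediate early genes such as *Fos*, *Jun* and *Klf4*. In gated cells none of them was called for IL1β against vehicle in WT, and only *Klf4* fell in KO. The median change with IL1β was 0.07 in WT and -0.43 in KO. In the study's own comparison, KO against WT, the median was 0.356 with vehicle and -0.175 with IL1β, and none was called. Against granulocyte progenitors 12 of the 15 had a lower IL1β effect and none a higher one (median -0.63, against 0.04 over all genes). The list was chosen on cells of these mice, so it is not independent evidence of its direction. Other genes with a lower effect than in granulocyte progenitors were *S100a6* (-1.58), *Lsp1* (-1.14), the growth regulator *Slfn2* (-1.13) and the chemokine *Ccl6* (-1.18), with edgeR adjusted p of 0.00102, 5.02e-05, 1.1e-05 and 0.00143. *Vcam1*, an adhesion molecule, rose by 3.87 in WT and 2.69 in KO, from 1.496 ± 1.20 to 16.6 ± 5.72 CPM and from 3.69 ± 3.71 to 23.5 ± 7.79 CPM, and by 1.78 more than in granulocyte progenitors (adjusted p = 0.000269). Over all mice *Vcam1* stood at 76.8 CPM in granulocyte progenitors, at 11.9 in gated cells and at 4.16 in their 5-marker members. The 7 macrophage markers summed to 4.92 to 10.4 CPM in WT vehicle and 18.9 to 32.3 CPM in WT IL1β mice, and to 5.19 to 16.9 and 23.4 to 41.3 CPM in KO, none at 0, but *Vcam1* is 1 of them and makes up much of these sums with IL1β.

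Few genes were called between the genotypes. With vehicle, 4 of 11310 genes (0.0354%) were higher in KO and none lower by edgeR, with 642 (5.68%) at an unadjusted p under 0.05 and 11 called by DESeq2, all higher. With the 8 libraries as replicates, *Commd10* alone was called by edgeR, with vehicle and with IL1β, so the other genotype differences below were lost in that fit. These 4 were named after their values had been seen. *Commd10*, a member of the COMMD family, stood at 11.3, 8.20, 11.2 and 11.7 CPM in WT and 36.5, 34.3, 37.95 and 40.96 CPM in KO mice with vehicle, and at 11.8, 8.70, 13.2 and 7.24 CPM against 30.5, 43.1, 33.9 and 31.5 CPM with IL1β. All 8 KO mice were above all 8 WT mice, by 1.79 ± 0.15 with vehicle and 1.76 ± 0.14 with IL1β (log2, edgeR adjusted p = 5.38e-06 and 3.23e-06). Only KO mice carried *Vav-Cre*, so the parts of the transgene and of *Tet2* loss in this difference cannot be told apart. *Sva* (chr6:42038394-42042851, plus strand), known from seminal vesicles, had 0 UMIs in all WT mice and 1.27 to 2.10 CPM in all KO mice, 54 UMIs with each treatment.

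*Ifitm1*, another interferon-induced membrane protein, stood at 67.3, 73.8, 57.6 and 56.2 CPM in WT vehicle mice and at 206, 135, 144 and 158 CPM in KO vehicle mice, a difference of 1.42 ± 0.23 (edgeR adjusted p = 0.0268). With IL1β the values were 233, 167, 128 and 118 CPM in WT and 163, 174, 277 and 226 CPM in KO, which overlapped and did not pass (0.45, adjusted p = 0.395). The rise with IL1β was 1.28 in WT (adjusted p = 0.00128) and 0.30 in KO (adjusted p = 0.295), and the difference between these was -0.98 (adjusted p = 1, unadjusted p = 0.0054). The scavenger receptor *Scarf1* stood at 0.368 to 1.64 CPM in WT and 2.15 to 5.33 CPM in KO mice with vehicle (2.28 ± 0.39, adjusted p = 0.0393).

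With IL1β, 23 genes were higher and 6 lower in KO (0.256% called, 0.203% higher and 0.0531% lower), with 1421 (12.6%) at an unadjusted p under 0.05, and DESeq2 called 168. The split between directions depended on the setting, with 15 higher and 13 lower without TMM and 26 higher and 36 lower by the hashtag ratio rule. *Mpo* and *Elane* were among the 23. *Mpo* was higher by 0.60 ± 0.12 (edgeR adjusted p = 0.0359), with all 4 KO mice above all WT mice, and by 0.57 with vehicle, where it did not pass (adjusted p = 0.221). *Elane* stood at 2645, 2753, 2163 and 2853 CPM in WT and at 4595, 3421, 4203 and 4598 CPM in KO with IL1β, higher by 0.78 ± 0.14 (adjusted p = 0.0263). The 6 granulocyte progenitor markers, *Mpo* and *Elane* among them, summed to 9656 to 13485 CPM in WT IL1β mice and 13793 to 19778 CPM in KO IL1β mice. *Clec12a*, an inhibitory lectin receptor of myeloid cells, stood at 298, 281, 303 and 331 CPM and at 499.8, 389, 429 and 424 CPM (0.61 ± 0.10, adjusted p = 0.0119). Of the genes lower in KO, *Prg2*, the major basic protein of eosinophils, stood at 81.9, 70.7, 39.96 and 211 CPM in WT and 6.27, 8.73, 3.49 and 9.86 CPM in KO (-3.67 ± 0.68, adjusted p = 0.0295). The 3 eosinophil markers summed to 44.1 to 226 CPM in WT IL1β mice and to 5.02 to 12.5 CPM in KO IL1β mice, with none at 0 over all members, but *Prg2* is 1 of the 3 and makes up most of these sums. The part of eosinophils in this difference was not tested. Of the gate, 14.7 to 25.3% had all 5 markers in WT IL1β mice and 8.01 to 20.2% in KO IL1β mice, and within the 5-marker members 1 gene was called. The count also turned on single mice: it was 210 without KO IL1β mouse 2 and 4 without KO IL1β mouse 1. Of the gene lists, the primary granule and progenitor genes alone held calls by edgeR, 2 of 15, both higher in KO (median 0.52, against 0.00 over all genes). DESeq2 called 4 of these 15, 11 ribosomal protein genes and 2 S100 genes, all higher, and 1 gene in each of 8 other lists.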

How the data were processed

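Single-cell 3′ libraries (10x) were aligned and counted by the authors, and the deposited UMI counts per gene and cell were used unchanged. The submitters' processing notes name Cell Ranger 3.1.0, Seurat 3.2.3 and mm10. Depth and precision per mouse are given with the results. Cells with at least 750 genes and at most 10% mitochondrial UMIs were kept, and mice were assigned from the deposited hashtag counts with HTODemux (Seurat 5.3.0, quantile 0.99). UMIs were summed per mouse and gate and tested with edgeR 4.0.16 (quasi-likelihood, TMM, low-count filter, R 4.3.3) with Benjamini-Hochberg adjustment, or DESeq2 1.42.0 as an alternative, after a check on simulated data. Shares were tested by exact permutation (scipy 1.17.1). CPM are UMI counts scaled to each sum's total. Named genes were up to 8 per direction with at least 50 CPM in 1 group, up to 5 for differences between gates or effects, up to 4 per list, and a fixed set. Cells without a single hashtag entered no test by mouse under HTODemux. Those with neither hashtag entered the fit with libraries as replicates, and the hashtag ratio rule assigned cells anew. Replicates are separate mice, 2 to a library. Same-numbered mice deviated together (correlations 0.17 to 0.276) between the vehicle groups only, where same-numbered pools gave 0.28. Members and lists were chosen with earlier results of these data known. Other alternatives were scaling, filters, gates, hashtag rules and leaving out mice.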

Additional observations from a re-analysis of the deposited data

Results flagged for a closer look

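Of 132 groups of 4 mice, 9 had 1 mouse far from the others by Dixon's test at the 95% level, which chance gives in about 1 of 20 groups. The 13.6% of cells in the gate in WT vehicle mouse 2 lay below 27.0 to 27.6% in the others. In the same group *Vcam1* was 3.28 CPM and *Commd10* 8.20 CPM in mouse 2, *Prg2* was 34.5 CPM in mouse 3, and *Nr4a1*, an immediate early nuclear receptor, was 8.73 CPM in mouse 1. In KO IL1β mouse 2, *Csf1r* was 59.9 CPM against 43.7 to 45.9 in the others, and *Klf4* was 129 CPM against 51.9 to 61.3. In KO IL1β mouse 1, *Ifitm3* was 186 CPM against 378 to 414. In KO vehicle mouse 1, *Cd14* was 13.6 CPM against 6.05 to 7.22.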

How the results depend on the processing

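The gate is a marker cut, and 5-marker members are few. Within these, added after the data were seen, 413 genes were called for IL1β in WT, 684 in KO and 1 for KO against WT with IL1β, where the share ratio was -0.54. *Hspe1* in WT was 0.030 there, and in KO *Cd63* was -0.14, *Cebpe* -0.29, *Clec9a* 0.72, *Ctss* 0.083, *Irf5* 0.11, *Lsp1* 0.000139, *Ly86* 0.057, *Plbd1* 0.24, *Racgap1* 0.079, *S100a6* 0.069, *Slc40a1* -0.48, *Tnf* -0.14 and *Trem2* 0.19, each with the opposite sign. Fewer cells enter that fit. Whether this or the kind of cell changed the signs was not tested.

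With the 8 libraries as replicates, 133 genes (WT), 1519 (KO), 1 (KO against WT, vehicle) and 1 (IL1β) were called. The hashtag ratio rule gave share ratios of 0.41, -0.51, 0.80 and -0.12 in the order of the report, with WT vehicle mouse 2 at 4019 cells against 698, and 1403 for IL1β in WT, 1 for KO against WT with vehicle and 62 with IL1β. KO against WT with vehicle gave 11 with DESeq2 and 7 without a filter. With IL1β it gave 19 with 4 or more markers, 168 with DESeq2, 16 with *Xist* as covariate, 75 without a filter and 54 without high-UMI cells. The difference from granulocyte progenitors gave 774 with 4 or more markers, and that from monocyte-primed progenitors 26 with 4 or more markers and 124 without a filter. The causes were not tested. No named gene changed sign under the other alternatives.

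The labels pair no mice between groups. Pools of the same number in WT vehicle and KO vehicle had a correlation of deviations of 0.28. The 4 same-numbered pairs of mice there had 0.17 to 0.276, so a pairing of mice and one of pools cannot be told apart. In each other pair of groups at least 1 was 0.1 or lower (-0.204 at the lowest). With the replicate block, 2631 genes were called for IL1β in WT, 3992 in KO, 4 and 47 for KO against WT with vehicle and IL1β, and 0 for the interaction. KO against WT with vehicle thus gave 4 genes with and without the block, and its share ratio 0.37 (exact permutation p = 0.333 within pools) did not pass in either.

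Leaving out 1 mouse gave 1711 (without WT vehicle 1) to 2650 genes for IL1β in WT and 2788 to 3740 in KO. KO against WT gave 1 (without WT vehicle 3 or 4) to 6 with vehicle, with 2 without WT vehicle 1 or KO vehicle 1. With IL1β it gave 4 (without KO IL1β 1) to 210 (without KO IL1β 2), with 82 without WT IL1β 1, 16, 10 and 8 without WT IL1β 2, 3 and 4, and 10 and 18 without KO IL1β 3 and 4. The interaction gave 0 each time. The difference from granulocyte progenitors gave 786 (without WT IL1β 1) to 1755, with 865 without WT vehicle 1 and 909 without KO vehicle 3. That from monocyte-primed progenitors gave 22 (without KO IL1β 4) to 115 (without KO IL1β 2), with 84 without KO vehicle 1, 30 without KO vehicle 3 and 26 without WT vehicle 3. Share ratios were -0.18 to 0.16, -0.41 to -0.15, 0.12 to 0.46 and -0.11 to 0.14 in the order of the report.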
